A study of Mus musculus with 10 samples.

Results

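The cytotoxic effector genes of lymphocytes are described here in 10 mouse melanoma tumours. They are the granule genes Gzma, Gzmb, Prf1 and Nkg7, the receptor genes Klrk1, Klrd1, Ncr1 and Klrb1c, and the transcription factor genes Eomes and Tbx21. They were found by matching the Ensembl identifiers of the deposited count table to these symbols, which gave 10 of the 52636 genes in the table. All 10 were among the 17286 genes kept by the filter on low counts. Polyadenylated RNA of each tumour had been sequenced, and the comparison asks what sets tumours with active ARF6, a small GTPase of membrane traffic, apart from tumours without it. In 6 tumours the genotype was BrafCA and Cdkn2af/f together with Arf6Q67L, an activating mutation of Arf6, and in 4 control tumours it was BrafCA and Cdkn2af/f alone. Both groups thus carried the conditional oncogenic Braf allele and the floxed Cdkn2a tumour suppressor locus. The driver of recombination, the age and the sex of the mice are not stated in the sources used here, nor is it said which tumours came from separate animals, so p-values measure only the spread between these tumours.

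Cytotoxic T cells and natural killer (NK) cells kill tumour cells by releasing granules that hold perforin, which opens the target membrane, and granzymes, the proteases that start cell death. NK cell receptors of the lectin-like and natural cytotoxicity families decide whether a target is attacked, and many cytotoxic T cells carry some of them too. EOMES and T-bet, a pair of related T-box transcription factors, drive the program in both cell types. In bulk tumour RNA, fewer such cells and less RNA per cell cannot be told apart.

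Library totals lay between 28635414 and 40869091 counts. Levels are counts scaled to library size (CPM) with TMM factors, and a count of 0 allows up to 3 counts, which is 0.0761 to 0.106 CPM in these libraries and covers counting error only. The mean of Arf6 was 104 ± 21.3 CPM with the mutation (SD, n = 6) and 93.0 ± 17.4 CPM without it (SD, n = 4), which checks no label because the mutation need not alter the level. Among melanocyte markers, Tyr and Dct, which encode pigment enzymes, were at 0 counts in all 10 tumours. Mlana was at no more than 3 counts in any tumour, within the limit given above. Mitf, the master regulator of melanocytes, was present at 11.1 to 26.1 CPM, so the tissue label rests here on few of its defining markers.

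The promoters are given as a description of sequence, and a relation of their sites to the levels across tumours was not tested. RefSeq promoter windows of GRCm38.p6 were found for 9 of the 10 members, and the 250 bases before each start were searched on both strands for the RUNX site TGTGGTT, the T-box core GGTGTGA and the STAT site TTCNNNGAA. The RUNX site lay in the windows of Gzma, Gzmb, Klrk1 and Ncr1, that is 4 of 9 members, while 4.40% of all 32851 promoter windows of that length held it. It was found in none of the windows of Prf1, Nkg7, Klrb1c, Eomes and Tbx21. The T-box core was found in the window of Nkg7 alone, 13 bases before the start (1 of 9 members; 3.33% of all windows), and the STAT site likewise, 220 bases before the start (7.02% of all windows). A match is a run of letters and not a measured binding site. The 4 member windows with the RUNX site, and that of Gzmg for comparison with Gzmb, read as follows from 5′ to 3′ on the strand of the gene, with the RUNX site in capitals, as AACCACA where it lies on the opposite strand. They lie at chr13:113100982-113101231 (minus strand), chr14:56262335-56262584 (minus), chr6:129623865-129624114 (minus), chr7:4337465-4337714 (plus) and chr14:56159580-56159829 (minus). The site begins 51, 34, 129, 176 and 191 bases before the RefSeq start that borders the window. For Gzmb and Ncr1 that start differs from the one in the gene coordinates given below.
Gzma: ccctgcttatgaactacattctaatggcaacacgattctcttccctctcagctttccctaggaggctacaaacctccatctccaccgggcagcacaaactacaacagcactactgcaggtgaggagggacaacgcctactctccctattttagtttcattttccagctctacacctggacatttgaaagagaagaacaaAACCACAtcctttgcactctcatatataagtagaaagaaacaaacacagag
Gzmb: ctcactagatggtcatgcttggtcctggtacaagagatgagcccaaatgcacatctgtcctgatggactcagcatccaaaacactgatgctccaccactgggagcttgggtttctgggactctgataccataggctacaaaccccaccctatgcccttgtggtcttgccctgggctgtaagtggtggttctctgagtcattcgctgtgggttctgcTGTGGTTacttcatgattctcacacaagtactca
Klrk1: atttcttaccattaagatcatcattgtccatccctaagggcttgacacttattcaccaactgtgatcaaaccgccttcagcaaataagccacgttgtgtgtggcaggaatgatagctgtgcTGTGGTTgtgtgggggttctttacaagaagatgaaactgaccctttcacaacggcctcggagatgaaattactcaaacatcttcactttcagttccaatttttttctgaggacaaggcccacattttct
Ncr1: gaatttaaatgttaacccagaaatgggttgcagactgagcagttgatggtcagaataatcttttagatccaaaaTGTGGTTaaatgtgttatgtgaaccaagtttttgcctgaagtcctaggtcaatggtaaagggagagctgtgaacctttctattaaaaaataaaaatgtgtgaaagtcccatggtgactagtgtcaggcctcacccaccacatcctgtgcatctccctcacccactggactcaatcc
Gzmg: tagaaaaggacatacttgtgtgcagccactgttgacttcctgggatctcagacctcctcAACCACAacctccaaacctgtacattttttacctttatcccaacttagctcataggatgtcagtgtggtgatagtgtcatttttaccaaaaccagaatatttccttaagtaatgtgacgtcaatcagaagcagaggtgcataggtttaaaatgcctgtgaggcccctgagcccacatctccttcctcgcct

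Of the 10 genes, 7 had a lower and 3 a higher fitted level in Arf6Q67L tumours than in controls, and the largest differences were those of Klrk1 and Nkg7. None passed the threshold: with edgeR's quasi-likelihood test and Benjamini-Hochberg adjustment, 0 of 10 members and 0 of all 17286 genes (0%) had an adjusted p under 0.05. DESeq2 called 402 of 19928 genes (2.02%) and 0 of the 10 members, among which its lowest adjusted p was 0.117, for Klrk1. In edgeR 2 of the 10 members, Klrk1 and Nkg7, had an unadjusted p under 0.05, against 11.7% of all genes tested, and both lay on the lower side, as did 7.05% of all genes. The median log2 fold change of the 10 genes, Arf6Q67L over control, was -0.64, beside 0.00 (-0.00177) over all genes tested, of which 50.3% were negative. The groups overlapped for all 10 members. Groups apart were seen for only 2.44% of all genes, so overlap in all of 10 genes does not set the members apart. The spread within each genotype was wide, as the plot of levels by tumour shows: from the lowest to the highest of the 10 tumours the level differed 7.42-fold for Ncr1 and 76.8-fold for Nkg7, with the other 8 genes in between.

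**Figure D1:**
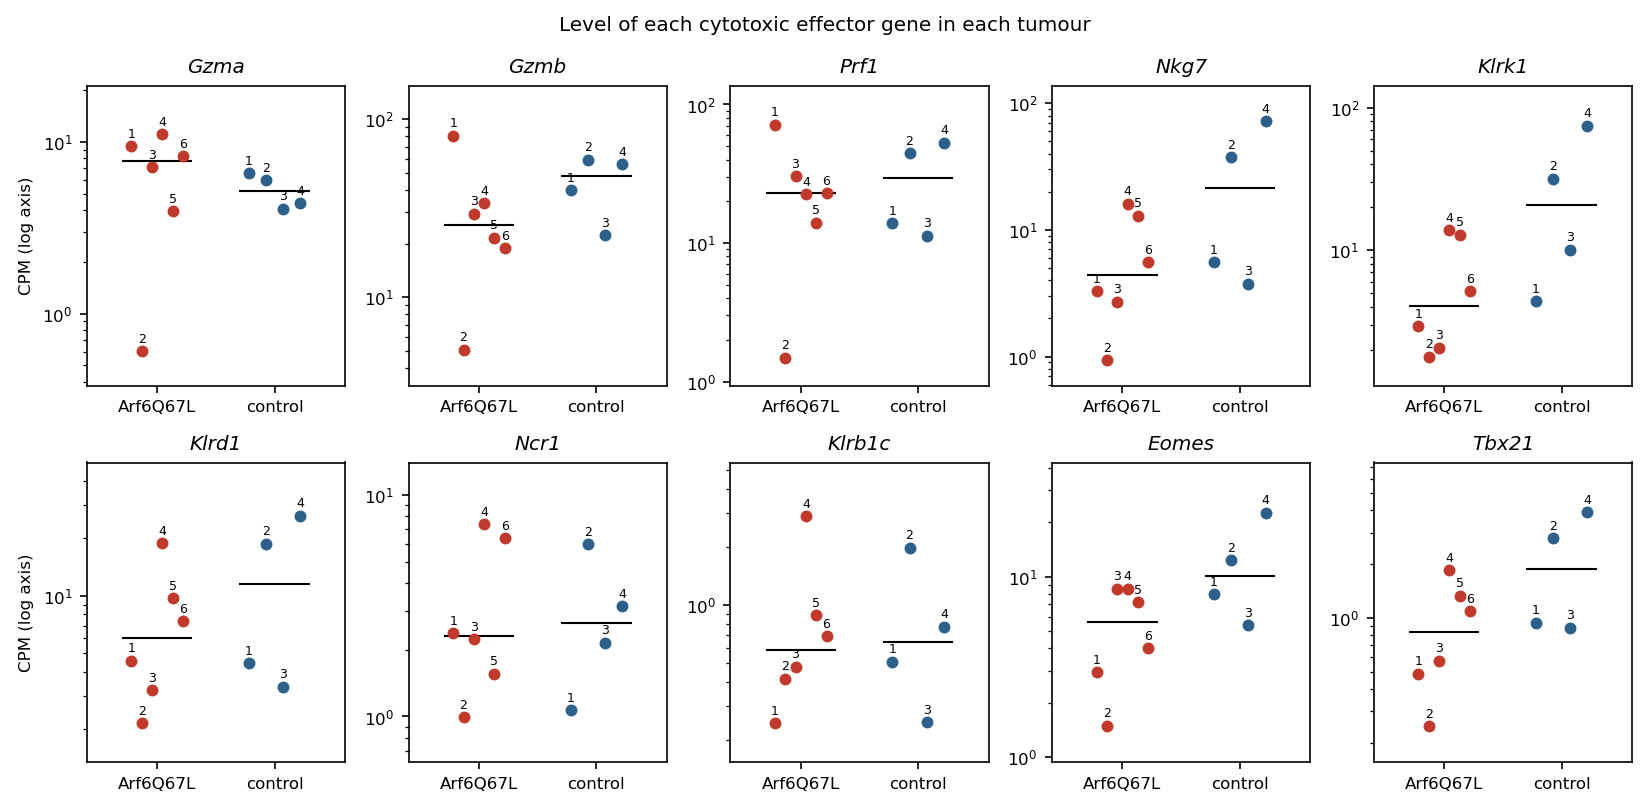
Level of each of the 10 cytotoxic effector genes in each tumour, in CPM on a log axis (6 Arf6Q67L tumours in red, 4 controls in blue, each point labelled with its tumour number, the black line at the group's median). Points of both groups overlap in all 10 panels, and Arf6Q67L tumour 2 is the lowest point in 9 of them.

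Gzmb, which encodes the granzyme best known for cleaving caspases (chr14:56258838-56262260, minus strand), lay at 5.07 CPM in the lowest, 25.5 CPM in the median and 80.9 CPM in the highest of the Arf6Q67L tumours. The controls had 40.1, 59.4, 22.3 and 55.9 CPM. The highest and the lowest tumour of the series were thus both of the Arf6Q67L genotype, and the controls fell between them. The log2 fold change was -0.49 (SE 0.59; edgeR adjusted p = 0.790), and it was -1.03 without Arf6Q67L tumour 1, the tumour with most Gzmb.

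Prf1, which encodes perforin (chr10:61297833-61304680, plus strand), followed the same order at its ends. Its level was 1.49 CPM at the lowest, 22.8 CPM at the median and 71.5 CPM at the highest of the Arf6Q67L tumours, and 13.9, 44.6, 11.3 and 53.0 CPM in controls 1 to 4. Arf6Q67L tumour 1 again stood above all controls and tumour 2 below all of them. The log2 fold change of -0.18 (SE 0.79; edgeR adjusted p = 0.954) had no firm sign, since it was -0.75 without Arf6Q67L tumour 1 and 0.24 without control 4.

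Gzma, a granzyme with other substrates than Gzmb (chr13:113093825-113100981, minus strand), was the most even of the granule genes among controls, at 6.59, 6.00, 4.09 and 4.39 CPM. In Arf6Q67L tumours it ran from 0.607 CPM in tumour 2 over a median of 7.69 CPM to 11.1 CPM in tumour 4. Of these, 4 tumours were above all controls and 2 were below all of them, so the groups overlapped with the wider spread on the Arf6Q67L side. The fitted log2 fold change was 0.36 (SE 0.59; edgeR adjusted p = 0.853), while the plain difference of mean log2 CPM was -0.04 (exact permutation p = 0.886).

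Nkg7, which encodes a granule membrane protein needed for full degranulation (chr7:43437073-43438249, plus strand), had another profile. Arf6Q67L tumours had 0.938 CPM at the lowest, 4.43 CPM at the median and 16.1 CPM at the highest. The controls had 5.53, 37.5, 3.77 and 72.0 CPM. Controls 2 and 4 stood above every Arf6Q67L tumour, while controls 1 and 3 lay among them. Arf6Q67L tumours averaged 6.92 ± 6.14 CPM (SD, n = 6), below the control mean of 29.7 ± 32.2 CPM (SD, n = 4). The fitted log2 fold change was -2.10 (SE 0.92; edgeR adjusted p = 0.422; exact permutation p = 0.152), and it was -1.16 without control 4.

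Among the receptor genes, Klrk1, which encodes the activating receptor NKG2D (chr6:129610323-129623864, minus strand), resembled Nkg7. The Arf6Q67L tumours had 1.79 CPM at the lowest, 4.04 CPM at the median and 13.9 CPM at the highest, and the controls 4.39, 31.7, 10.1 and 74.5 CPM. Controls 2 and 4 were again above all Arf6Q67L tumours, and 3 Arf6Q67L tumours lay below every control. The mean of 6.44 ± 5.49 CPM with Arf6Q67L (SD, n = 6) beside 30.2 ± 31.8 CPM without (SD, n = 4) gave a log2 fold change of -2.23 (SE 0.83), the largest among the members, with an edgeR adjusted p of 0.364 and an exact permutation p of 0.0952. It was -1.25 without control 4.

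Klrd1 encodes CD94, the partner chain with which NKG2 family members bind class I molecules, and is the neighbour of Klrk1 on chromosome 6 (chr6:129591782-129598775, plus strand). It ran from 2.15 CPM over a median of 5.99 CPM to 18.9 CPM in Arf6Q67L tumours and stood at 4.44, 18.8, 3.35 and 26.3 CPM in controls. Arf6Q67L tumour 4 and control 2 were nearly equal, and control 4 was highest. The log2 fold change was -0.79 (SE 0.71; edgeR adjusted p = 0.712), and -0.19 without control 4. Counts of Klrk1 per count of Klrd1 ran from 0.639 to 1.32 with Arf6Q67L and from 0.989 to 3.02 without, where the ratio was highest in controls 3 and 4.

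Ncr1, which encodes NKp46, a receptor largely restricted to NK cells and related innate lymphoid cells, and Klrb1c, which encodes the NK1.1 antigen, had fold changes near 0. Ncr1 (chr7:4337724-4345164, plus strand) ran from 0.993 CPM over a median of 2.31 CPM to 7.36 CPM in Arf6Q67L tumours and was at 1.06, 6.00, 2.15 and 3.15 CPM in controls. The highest tumours were Arf6Q67L tumours 4 and 6 followed by control 2, so that both genotypes were mixed throughout the order. The log2 fold change of Ncr1 was 0.17 (SE 0.64; edgeR adjusted p = 0.944), running from -0.19 without Arf6Q67L tumour 4 to 0.72 without control 2.

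Klrb1c (chr6:128778485-128789215, minus strand) was the member with fewest reads, 7 to 92 counts per tumour. It ran from 0.244 CPM over a median of 0.583 CPM to 2.88 CPM in Arf6Q67L tumours and was at 0.507, 1.98, 0.247 and 0.772 CPM in controls. Arf6Q67L tumour 4 and control 2 stood apart above the rest. The log2 fold change was 0.08 (SE 0.75; edgeR adjusted p = 0.980), with -0.69 without Arf6Q67L tumour 4 and 0.87 without control 2. Of the stretches of 50 bases in its transcripts, 17.0% also occur in other genes, Klrb1a, Klrb1b and the predicted gene Gm44511 among them, so its counts are less certain than those of the other members.

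Both transcription factor genes were lower in controls 1 and 3 than in controls 2 and 4. Eomes (chr9:118478212-118486132, plus strand) had 1.49 CPM at the lowest, 5.61 CPM at the median and 8.56 CPM at the highest of the Arf6Q67L tumours, and 7.96, 12.3, 5.39 and 22.6 CPM in controls. All 6 Arf6Q67L tumours were below the median of the controls, and 3 were below every control. Its log2 fold change was -1.14 (SE 0.53; edgeR adjusted p = 0.441; exact permutation p = 0.0952), and -0.64 without control 4.

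Tbx21, which encodes T-bet (chr11:97098071-97115331, minus strand), was at 0.248 CPM at the lowest, 0.831 CPM at the median and 1.85 CPM at the highest in Arf6Q67L tumours, against 0.938, 2.80, 0.881 and 3.89 CPM in controls. As for Eomes, all 6 Arf6Q67L tumours were below the control median and 3 below every control. Its log2 fold change was -1.19 (SE 0.60; edgeR adjusted p = 0.473; exact permutation p = 0.124), and -0.71 without control 4. Counts of Eomes per count of Tbx21 lay between 3.68 and 14.9 with Arf6Q67L and between 4.39 and 8.49 without, so the ranges overlapped. Per kilobase of exon, the mean level over the 10 tumours was highest for Gzmb, at 25.6 ± 15.8 CPM per kilobase (SD, n = 10), followed by Nkg7 (17.5 ± 24.6), Prf1 (11.1 ± 8.39), Klrd1 (7.71 ± 6.58), Gzma (6.12 ± 3.04), Klrk1 (2.22 ± 3.13), Ncr1 (2.16 ± 1.53), Eomes (1.95 ± 1.44), Tbx21 (0.566 ± 0.460) and Klrb1c (0.307 ± 0.289). Only between Gzma and Klrk1 did neighbours in this order differ by more than either SD, and in the other 8 neighbouring pairs the difference was below the larger SD.

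The 10 genes fell into profiles that differed across tumours. Over the 45 pairs, Pearson's r of log2 CPM across the 10 tumours ran from 0.179 (Gzmb with Klrb1c) to 0.983 (Nkg7 with Tbx21), with a median of 0.603. Besides that pair, 5 were above 0.9: Nkg7 with Klrd1 (0.960), Nkg7 with Klrk1 (0.949), Klrk1 with Tbx21 (0.949), Klrd1 with Tbx21 (0.940) and Gzmb with Prf1 (0.930). Gzma had r = 0.827 with Prf1, 0.774 with Gzmb and 0.204 with Klrk1. By rank the granule genes were less close, with rho = 0.527 for Gzma with Prf1 and 0.442 for Gzma with Gzmb. Spearman's rho was 0.733 for Gzmb with Prf1, beside 0.988 for Nkg7 with Tbx21. These values are descriptions over the same 10 libraries, and the low Arf6Q67L tumour 2 enters every pair.

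The tumours were therefore set beside a T cell score, the mean log2 CPM of 14 T cell genes such as Cd3e, Cd3g, Trac, Lck and Cd8a. The score was 0.18, -0.05, 0.41, 3.16, 2.62 and 1.98 in Arf6Q67L tumours 1 to 6 and 1.74, 4.32, 1.44 and 4.90 in controls 1 to 4. Controls 2 and 4 were thus richest in T cell transcripts, and Arf6Q67L tumours 1, 2 and 3 were poorest. Cd3e, part of the CD3 signalling unit, was at 15.7 and 23.8 CPM in controls 2 and 4 and at 0.325 to 5.26 CPM in Arf6Q67L tumours. Cd8a, the coreceptor of cytotoxic T cells, was at 54.0 and 77.3 CPM in those 2 controls and at 0.662 to 18.5 CPM in Arf6Q67L tumours, while Cd4 spanned 8.31 to 21.9 CPM in Arf6Q67L tumours and 8.42 to 33.0 CPM in controls.

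The members split by how closely they followed this score. Across the 10 tumours Tbx21 had r = 0.982 (rho = 1.0) and Nkg7 r = 0.975 (rho = 0.988), each with a permutation p of 1.0e-05, the smallest that 100000 permutations can give, and an adjusted p of 5.0e-05 over the family of 10 relations. Klrk1 (r = 0.960, rho = 0.952, permutation adjusted p = 0.000167) and Klrd1 (r = 0.941, rho = 0.915, adjusted p = 0.000175) came next, followed by Eomes (r = 0.824, rho = 0.758, adjusted p = 0.00614) and Klrb1c (r = 0.711, rho = 0.855, adjusted p = 0.0341). Without controls 4 and 2, the tumours farthest from the median score, r was 0.962 for Tbx21, 0.933 for Nkg7, 0.900 for Klrk1, 0.885 for Klrd1, 0.643 for Eomes and 0.784 for Klrb1c. Within the 6 Arf6Q67L tumours alone it was 0.963, 0.938, 0.967, 0.951, 0.646 and 0.888 in the same order, so the relation was not one between genotypes only.

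Ncr1 (r = 0.553, rho = 0.588, permutation adjusted p = 0.140), Gzmb (r = 0.444, rho = 0.321, adjusted p = 0.227), Prf1 (r = 0.441, rho = 0.345, adjusted p = 0.227) and Gzma (r = 0.271, rho = 0.0788, adjusted p = 0.474) were not past the threshold. Without controls 4 and 2, r was 0.513, 0.162, 0.170 and 0.448 for these 4 genes. Within the 6 Arf6Q67L tumours alone r was 0.627, 0.142, 0.179 and 0.444 in the same order. Ncr1 was thus close to Eomes (0.646) there, while over all 10 tumours r was 0.553 for Ncr1 and 0.824 for Eomes. The plot of members against the T cell score shows where they left it: Arf6Q67L tumour 1 had one of the lowest scores and the highest Gzmb and Prf1 of the series. That all members were set against 1 score, from the same libraries, and that these genes are also carried by cells other than T cells, limits what the relation can show.

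**Figure D2:**
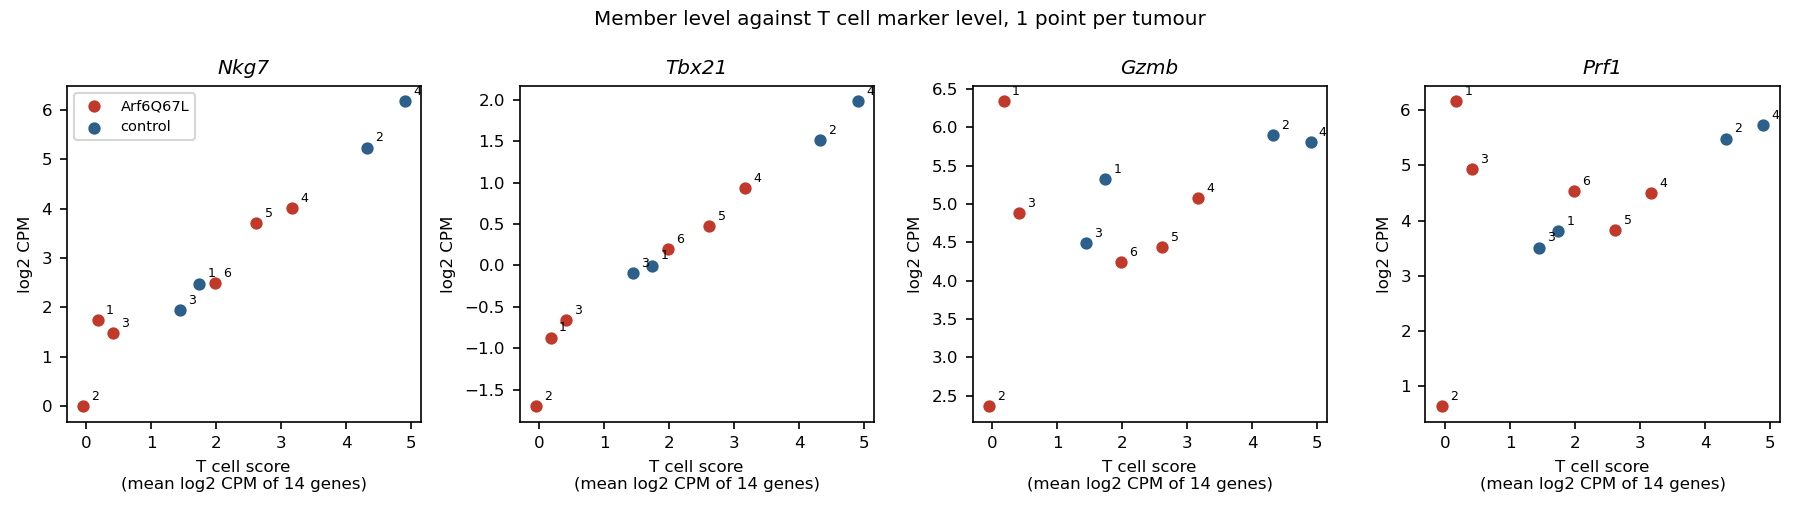
Log2 CPM of Nkg7, Tbx21, Gzmb and Prf1 against the T cell score (mean log2 CPM of 14 T cell genes), 1 point per tumour, labelled with the tumour number (Arf6Q67L red, control blue). Nkg7 and Tbx21 climb with the score (r = 0.975 and 0.982), whereas for Gzmb and Prf1 (r = 0.444 and 0.441) Arf6Q67L tumour 1, of low score, has the highest level of all.

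Expressed per count of Cd3e, Gzmb was at 249 in Arf6Q67L tumour 1 and 71.0 in tumour 3, at 6.40 to 12.7 in the other 4 Arf6Q67L tumours, and at 27.3, 3.78, 18.6 and 2.35 in controls 1 to 4. The ratio thus differed 106-fold between the highest and the lowest tumour. Prf1 per Cd3e differed 98.9-fold, from 2.23 to 220, again with Arf6Q67L tumour 1 on top. Nkg7 per Cd3e differed only 5.93-fold, from 1.70 to 10.1, and Klrk1 per Cd3e 4.46-fold, from 2.02 to 9.0. In Arf6Q67L tumours 1, 2 and 3 Cd3e stood at 0.325, 0.552 and 0.415 CPM, so these ratios rest on few Cd3e reads.

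The genes whose pattern was most like the mean of the 10 members were sought among 14796 other genes. The first was Klre1, an NK receptor of the same lectin-like family (r = 0.990 and rho = 0.976 over 10 tumours). It was followed by Zap70, the kinase of the T cell receptor (0.967), Il2rb, a receptor chain for interleukins 2 and 15 (0.966), A530010L16Rik (0.960), Serpinb6b, a serpin (0.956), Klrc1, which encodes NKG2A, the inhibitory partner of CD94 (0.956), Sh2d2a, a T cell adaptor (0.951), Pdcd1, which encodes PD-1 (0.950), Cd96 (0.946) and Fasl, the Fas ligand (0.946). The mean log2 CPM of the 10 members was 2.16, 0.23, 1.97, 3.36, 2.49 and 2.41 in Arf6Q67L tumours 1 to 6 and 2.10, 3.72, 1.89 and 3.87 in controls. Controls 2 and 4 and Arf6Q67L tumour 4 were highest, and Arf6Q67L tumour 2 was lowest by a wide margin. Ptprc, which encodes CD45 of all leukocytes, was at 110 CPM in Arf6Q67L tumours 1 and 2, at 106 CPM in control 3 and at 76.3 CPM in Arf6Q67L tumour 6, and tumour 2 also had the lowest T cell score. The part of leukocyte content in its low member levels was not tested.

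The granzymes encoded beside Gzmb on chromosome 14 took a different course from Gzmb. Gzmc, Gzmd, Gzme, Gzmf and Gzmg encode the granzymes C to G of mouse lymphocytes and lie in the same locus as Gzmb and several mast cell proteases. Their summed level was 675 CPM in Arf6Q67L tumour 1, 260 CPM in tumour 3 and 297 CPM in tumour 6, and 10.8, 9.46 and 7.08 CPM in tumours 2, 4 and 5. Controls 1 to 4 had 25.0, 8.33, 60.05 and 2.62 CPM. Gzmb therefore made up 10.7%, 32.0%, 10.2%, 78.1%, 75.3% and 5.98% of the counts of Gzmb to Gzmg in Arf6Q67L tumours 1 to 6, and 61.6%, 87.7%, 27.1% and 95.5% in controls 1 to 4. Low and high shares occurred in both genotypes.

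The fitted log2 fold changes were 2.45 (SE 1.25) for Gzmc, 3.53 (SE 1.70) for Gzmd, 1.59 (SE 1.176) for Gzme, 3.91 (SE 1.99) for Gzmf and 4.05 (SE 2.01) for Gzmg, with edgeR adjusted p-values from 0.456 to 0.638. Gzmg alone ran from 0.221 to 213 CPM among Arf6Q67L tumours and from 0.0335 to 8.63 CPM among controls, and the groups overlapped for each of the 5 genes. Gzmc to Gzmg were low in controls 2 and 4, the tumours richest in T cell transcripts (plot of the granzyme locus and heat map). Of the tumours with a high sum, Arf6Q67L tumours 1 and 3 had low T cell scores (0.18 and 0.41). Tumour 6 had a middle score (1.98). Arf6Q67L tumour 2 had the lowest score (-0.05) and a low sum as well. From 4.14% (Gzmc) to 21.9% (Gzmd) of the 50-base stretches of these transcripts occur in another gene, mostly in one another, so the sum is firmer than its parts. None of the stretches of Gzmb is shared. Aligned in pairs, the promoter windows of Gzmc to Gzmg had 77.2% to 95.2% of their 250 bases in common and all held the RUNX site, whereas that of Gzmb had 49.2% to 54.0% in common with them.

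**Figure D3:**
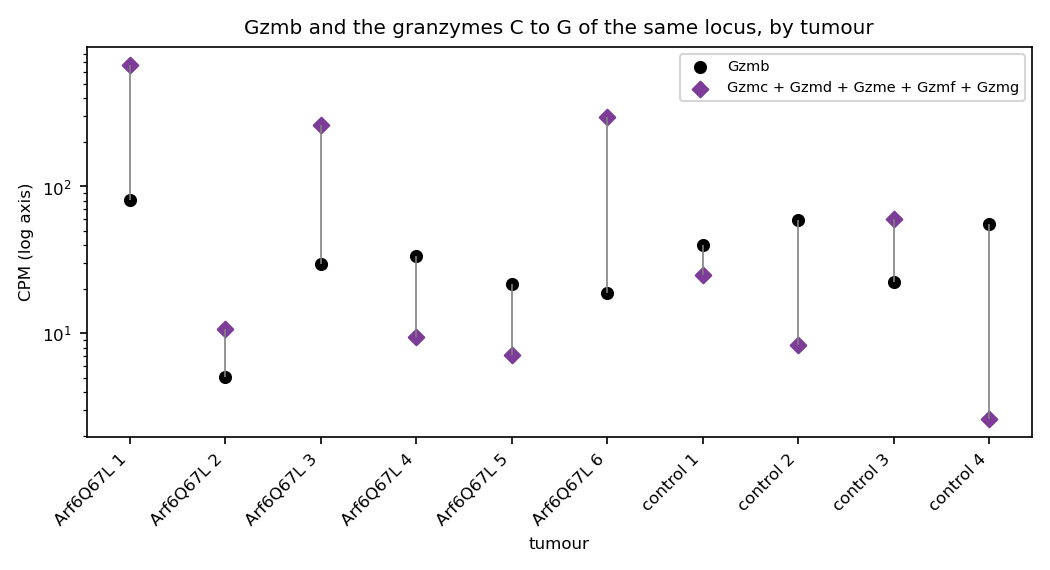
Level of Gzmb (black circles) and summed level of Gzmc, Gzmd, Gzme, Gzmf and Gzmg (purple diamonds) in each tumour, in CPM on a log axis, joined by a line per tumour. The sum exceeds Gzmb in Arf6Q67L tumours 1, 2, 3 and 6 and in control 3, and lies below it in the other 5 tumours.

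**Figure D4:**
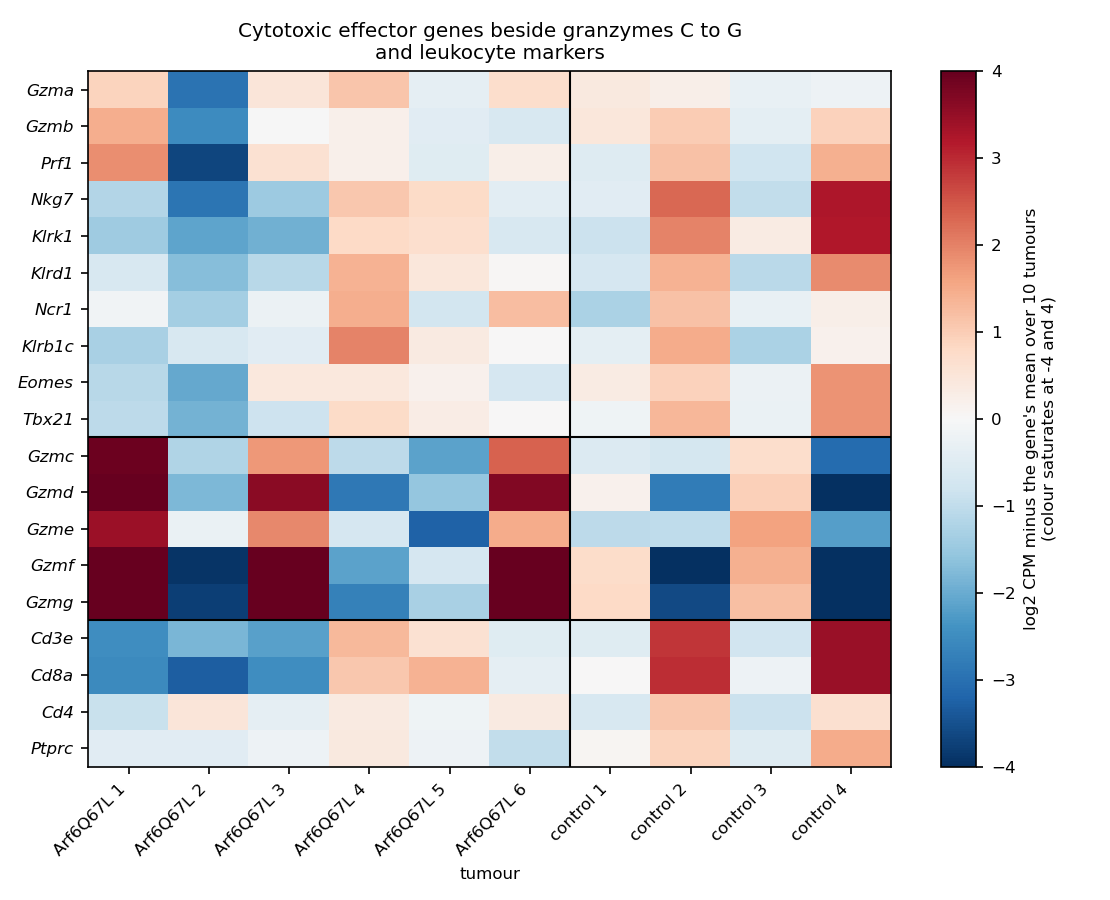
Heat map of log2 CPM minus each gene's mean over the 10 tumours (red above, blue below, colour saturated at -4 and 4), with the 10 effector genes on top, Gzmc to Gzmg in the middle and the leukocyte genes Cd3e, Cd8a, Cd4 and Ptprc at the bottom. Nkg7, Klrk1, Klrd1 and Tbx21 share the red of controls 2 and 4 with Cd3e and Cd8a. Gzmc, Gzmd, Gzmf and Gzmg are reddest in Arf6Q67L tumours 1, 3 and 6, whereas for Gzme only 2 Arf6Q67L tumours exceed every control.

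Other granule genes gave no uniform picture. Of 12 tested genes for other granzymes and granule content, 5 were negative and 7 positive at a median log2 fold change of 0.69, with 0 past the threshold. Srgn, which encodes serglycin, the proteoglycan that packs granzymes (log2 fold change -0.81, SE 0.28, edgeR adjusted p = 0.345), and Serpinb9, an inhibitor of granzyme B (-0.74, SE 0.35), were lower in value, and Serpinb9b (1.36, SE 0.52, edgeR adjusted p = 0.368) was higher. Gzmk, another granzyme of T cells, was under the filter, with 0 counts in control 1 and in every Arf6Q67L tumour except tumour 4, at 0.439 CPM, and with 1.73, 0.106 and 4.23 CPM in controls 2, 3 and 4. The list of genes beside Gzmb shares Gzmc to Gzmg and also holds mast cell proteases. In it, 10 of 11 tested genes were positive at a median of 2.91 and 0 passed, while 50.3% of all genes tested were negative. Ctsg (3.74, SE 1.27), Mcpt4 (3.26, SE 1.14), Cma1 (2.91, SE 1.15) and Mcpt1 (2.20, SE 0.91), proteases of mast and myeloid cells, lay between 0.344 and 0.398 in edgeR adjusted p.

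Of the genes of granule release, 5 of 9 were negative and 4 positive, at a median of -0.26, with 0 past the threshold and 3 under an unadjusted p of 0.05, all on the lower side. These 3 were Unc13d, which primes granules for fusion (-1.08, SE 0.43, edgeR adjusted p = 0.383), Rab27a, which docks them (-1.27, SE 0.55, edgeR adjusted p = 0.415), and Vamp8, a vesicle fusion protein (-0.52, SE 0.23, edgeR adjusted p = 0.425). Death ligands, interferon-gamma and effector chemokines, the other arm of lymphocyte attack, were negative in 9 of 9 tested genes, at a median of -1.88. Of these, 7 were under an unadjusted p of 0.05 and 0 past the threshold. Over all genes tested, 50.3% were negative and 7.05% had an unadjusted edgeR p under 0.05 on the lower side. The same shares stand beside the genes of granule release and the lists below. Tnfsf10, which encodes the death ligand TRAIL, averaged 4.16 ± 1.89 CPM with Arf6Q67L (SD, n = 6) and 13.6 ± 9.57 CPM without (SD, n = 4), and 5 of 6 Arf6Q67L tumours were below every control (-1.71, SE 0.50, edgeR adjusted p = 0.284). Ccl3 (-3.32, SE 0.98), Ccl5 (-3.03, SE 1.08) and Tnf (-1.53, SE 0.57) lay between 0.285 and 0.365 in edgeR adjusted p. For each of these 4 genes the highest tumour was control 4.

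Among other NK receptors and adaptors, 19 of 23 tested genes were negative at a median of -0.85, with 0 past the threshold. Tyrobp, the adaptor DAP12 that signals for activating receptors and is also carried by myeloid cells (-1.09, SE 0.40), Slamf6 (-1.0003, SE 0.40), Tigit (-1.31, SE 0.55) and Cd96 (-1.61, SE 0.84), which binds the same ligand as Tigit, lay between 0.361 and 0.483 in edgeR adjusted p. The ligands of these receptors, which tumour cells and other cells can carry, were split, 3 of 9 tested being negative and 6 positive, at a median of 0.66. H2-T23 encodes Qa-1, the class I molecule that CD94 with NKG2A binds, and averaged 19.7 ± 6.83 CPM with Arf6Q67L (SD, n = 6) and 64.5 ± 46.8 CPM without (SD, n = 4). The log2 fold change of H2-T23 was thus -1.71 (SE 0.46; edgeR adjusted p = 0.273). The NKG2D ligands Ulbp1 (0.95, SE 0.33) and H60b (3.07, SE 1.03) and the CD96 and TIGIT ligand Pvr (0.74, SE 0.29) were higher in value, with edgeR adjusted p-values from 0.338 to 0.387. H60b reached 40.5 CPM in Arf6Q67L tumour 1 and 1.04 to 8.59 CPM in the other 5, against 0.335 to 2.20 CPM in controls, and it shares exon bases with its neighbour Raet1e.

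Partner transcription factors were negative in 13 of 15 tested genes at a median of -0.29, with 0 past the threshold. The extremes were Tox, a factor of exhausted T cells (-3.14, SE 1.20), and Ikzf3, a lymphoid zinc finger factor (-2.38, SE 0.97), while Ets1 (-0.29, SE 0.12) and Runx1 (-0.26, SE 0.12) differed little, all with edgeR adjusted p-values from 0.370 to 0.426. Cytokines and receptors that drive effector cells were negative in 11 of 13 tested genes at a median of -0.81. Il12rb1, a chain of the interleukin-12 receptor (-2.05, SE 0.63), Il21r (-1.48, SE 0.51), Il2rg, the common gamma chain (-0.97, SE 0.35), and Il7 (-1.18, SE 0.49) lay between 0.299 and 0.403 in edgeR adjusted p. Il15, the cytokine on which NK cells depend, was the one gene of that list whose groups did not overlap, at 2.95 CPM in the lowest, 10.99 CPM in the median and 13.0 CPM in the highest Arf6Q67L tumour and 14.6, 20.3, 14.4 and 14.4 CPM in controls. This gave a log2 fold change of -0.81 (SE 0.38; edgeR adjusted p = 0.451), and groups apart in this direction were seen for 1.28% of all genes tested.

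Markers of other cells also leaned to one or the other genotype. All 14 tested T cell genes were negative (median -2.01, 0 past the threshold), and their summed level was 33.4 to 154 CPM in Arf6Q67L tumours and 69.6 to 524 CPM in controls. The 4 genes carried by all leukocytes were negative too (median -0.68, summed level 351 to 713 CPM against 472 to 1218 CPM), as were 6 of 8 macrophage genes (median -0.78, 860.2 to 1830 CPM against 1311 to 3434 CPM) and all 5 tested gamma-delta T cell genes (median -0.82). Negative as well were 4 of 4 tested neutrophil genes (median -1.04). The same held for 5 of 6 conventional (median -0.76) and 5 of 6 plasmacytoid dendritic cell genes (median -0.61). The summed level of the gamma-delta list is mostly that of Sox13, which other cells can carry and which was at 8.24 to 110 CPM in Arf6Q67L tumours and 40.8 to 111 CPM in controls, while Trdc, which encodes the delta chain, was at most at 3.83 CPM. Of 10 mast cell and basophil genes, 9 were positive (median 3.03, 64.5 to 1065 CPM against 28.9 to 104 CPM), highest in Arf6Q67L tumours 6 and 2. This list shares proteases, Mcpt4 and Cma1 among them, with the list of genes beside Gzmb. The 1 negative gene is the same in both lists. Skeletal muscle genes summed to 772 CPM in control 4 and to 23.7, 2.83 and 1.20 CPM in controls 1 to 3, and to 10.6, 359, 219, 439, 535 and 36.9 CPM in Arf6Q67L tumours 1 to 6, so control 4, highest in 5 members, also held most muscle transcripts. Beside the members, 6 of 7 tested genes listed for NK cells and innate lymphoid cells were negative (median -0.93). That list shares Klrc1 and Klre1 with the other NK receptors. It also holds Itga1, which other cells can carry and which was at 305 to 1787 CPM. The members Ncr1 and Klrb1c had log2 fold changes of 0.17 and 0.08. The part of all these cell types in the member differences was not tested beyond the CD45 level given next.

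With the log2 CPM of Ptprc as a further term in the edgeR fit, 0 members were past the threshold, 3 instead of 7 were negative, and their median was 0.33. Klrk1 was then at -0.60, Eomes at -0.19, Tbx21 at -0.15, Nkg7 at 0.20, Gzmb at 0.02, Prf1 at 0.80 and Klrd1 at 0.72. Klrb1c, near 0 without the term, had the largest value, 1.19 (SE 0.68; edgeR adjusted p = 0.896), and Ncr1 was at 0.62 and Gzma at 0.46. Ptprc itself averaged 126 ± 41.3 CPM with Arf6Q67L (SD, n = 6) and 242 ± 142 CPM without (SD, n = 4), with a log2 fold change of -0.94 (SE 0.37; edgeR adjusted p = 0.382), so that this term takes up part of any difference between genotypes in leukocyte content. Control 4 had the highest level of 5 members and of Ptprc. Without control 4 the median of the members was -0.27, and 0 members had an unadjusted p under 0.05.

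**Figure D5:**
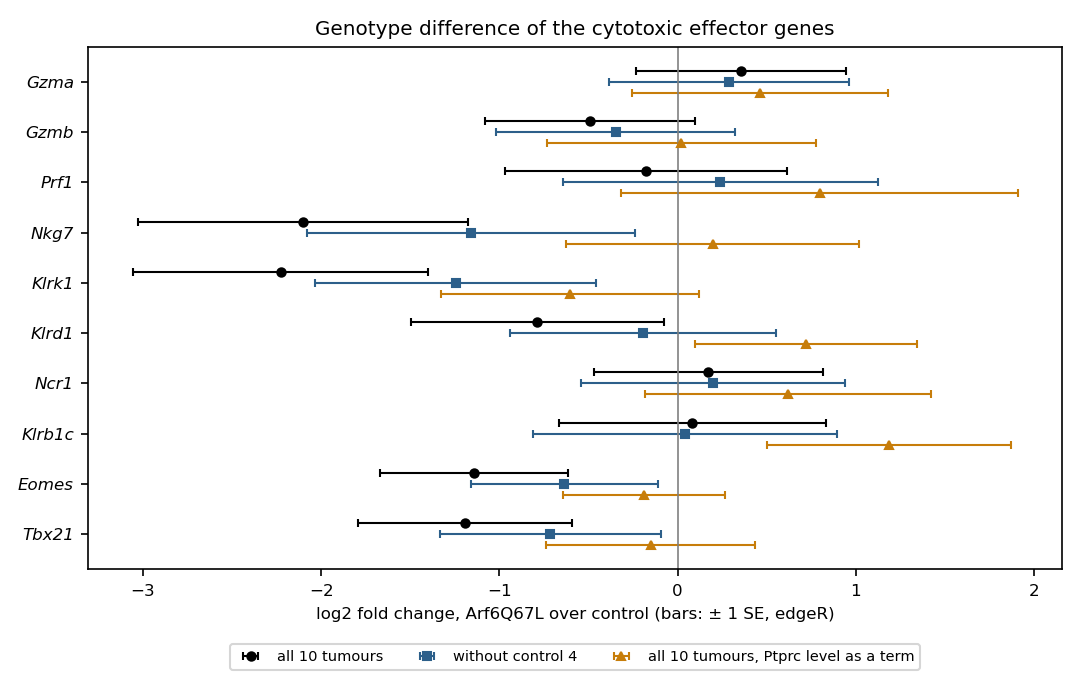
Log2 fold change of each cytotoxic effector gene, Arf6Q67L over control, from edgeR with bars of 1 SE on either side: all 10 tumours (black circles), without control 4 (blue squares) and with the log2 CPM of Ptprc as a term (orange triangles). Nkg7 and Klrk1 lie farthest from 0 with all tumours (-2.10 and -2.23) and nearer to it under both other fits.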

How the data were processed

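RNA was extracted with a Qiagen RNeasy Plus Universal kit and sequencing libraries came from the stranded mRNA kit of Illumina, per the labels' protocols. The authors deposited 1 table of raw counts per gene, with 52636 mouse Ensembl identifiers and 10 columns, each matched to a sample by its library identifier. The submitters' processing notes list GRCm38 as build and the tools DESeq2 1.18.0, featureCounts 1.5.1 and STAR 2.5.2b, with no role for any of them. How counting treated strand and reads with several matches is not given in the sources used here. Symbols and coordinates came from GENCODE M21 (52489 identifiers matched, 99.7%), and promoter windows from RefSeq. Library numbers were 1 to 6 in Arf6Q67L tumours and 9 to 12 in controls, so the order of libraries cannot be told apart from genotype. Tumours are numbered in accession order. Counts of every pair of tumours in a group differed far beyond sampling noise (lowest chi-square per gene 70.2).

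The comparison of genotypes used R 4.3.3 and edgeR 4.0.16 (TMM, filterByExpr at minimum count 10, glmQLFit with the robust option, glmQLFTest, Benjamini-Hochberg adjustment over the 17286 genes kept, threshold 0.05). The standard error (SE) is the log2 fold change over the root of F, and log2 CPM used a prior count of 2. Single members were also compared by a two-sided exact permutation test of log2 CPM over all 210 splits of the tumours, with a smallest p of 0.00476 and no adjustment. Correlations across tumours used 100000 permutations. This fit was first tested on simulated data of 6 and 4 tumours. It recovered 34% of 100 genes changed 2-fold and 70% of 100 genes changed 4-fold, with 1 false call. Changes of these sizes can thus stay short of the threshold. The changed genes were drawn at random from all genes kept. The recovery rates need not hold for the members, whose SE ran from 0.53 (Eomes) to 0.92 (Nkg7). Alternatives were DESeq2 size factors in edgeR, DESeq2 1.42.0, limma-voom (limma 3.58.1) with quality weights, no filter, each tumour left out and the Ptprc level as a term.

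The members and lists were chosen with earlier results of these data known. The text names Arf6, the members, up to 4 genes of lowest unadjusted p in each list, Cd3e, Cd8a, Cd4, Ptprc and the 10 genes most like the members. Gzmc, Gzme, Gzmf, Gzmg, Gzmk, Il15, Tyr, Dct, Mlana, Mitf, Sox13, Trdc, Itga1, Clca2, Gm13456 and Gm10093 were chosen after their values were seen. Of the 13 ligand genes listed, 10 were in the table.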

Additional observations from a re-analysis of the deposited data

Results flagged for a closer look

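Among 43 genes examined in both groups (86 groups of 4 or 6 tumours), 2 values stood apart from the rest of their group by Dixon's criterion at the 95% level, which chance alone would give for about 5% of groups. Gzma was at 0.607 CPM in Arf6Q67L tumour 2, and the next lowest Arf6Q67L tumour had 3.93 CPM. The gap was 0.635 of the group's range, just above the critical value of 0.625 for 6 tumours. The same tumour was lowest for 9 of the 10 members, and without it the log2 fold change of Gzma was 0.61 (edgeR adjusted p = 0.589). Mcpt1, a mast cell protease gene of the Gzmb locus, was at 0.0335 CPM in control 4, under the limit of 0.101 CPM that 3 counts give in that library, and the next lowest control had 0.558 CPM (0.844 of the range, critical value 0.829 for 4 tumours).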

How the results depend on the processing

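The count of members past the threshold was 0 in each of the 15 alternatives run, and of 150 member values 134 kept their direction and 16 did not. The lowest adjusted p was 0.117 (Klrk1, DESeq2), and that of Klrk1 was 0.364 in edgeR. Over all genes, the count past the threshold was 0 in edgeR, 402 in DESeq2, 2 in limma-voom with quality weights (Clca2 at -3.29 and Gm13456 at 1.24), and 0 to 1 when a tumour was left out, the 1 gene being Gm10093 without control 1. The cause of these differences was not tested.

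With limma-voom and quality weights the signs of Gzma (-0.20), Ncr1 (-0.087) and Klrb1c (-0.031) turned, so that all 10 members were negative (median -0.88). With the Ptprc level as a term, those of Gzmb (0.022), Prf1 (0.80), Nkg7 (0.20) and Klrd1 (0.72) turned, and the median was 0.33. When a tumour was left out, Prf1 turned without Arf6Q67L tumour 2 (0.09), control 2 (0.07) or control 4 (0.24), and was lowest at -0.75 without Arf6Q67L tumour 1. Ncr1 turned without Arf6Q67L tumour 4 (-0.19), Arf6Q67L tumour 6 (-0.08) or control 1 (-0.11), and Klrb1c without Arf6Q67L tumour 4 (-0.69), control 1 (-0.11) or control 3 (-0.22), and was highest at 0.87 without control 2. The median of the members ran from -0.99 without Arf6Q67L tumour 4 to -0.27 without control 4, and was -0.63 with DESeq2 size factors and -0.62 with no filter. No paired analysis was possible because the labels give the tumours of the 2 genotypes no shared replicate numbers. Depth limits Klrb1c most, with 7 counts in its lowest tumour.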
